A study of Drosophila melanogaster with 2 samples.

Results

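The vacuolar ATPase subunit genes of Drosophila melanogaster were taken as the protein-coding genes whose symbol starts with Vha, and 33 of the 13945 protein-coding genes on the 6 main chromosome arms met this rule. By textbook assignment 13 encode subunits of the cytosolic V1 domain, 18 encode subunits of the membrane V0 domain, and the other 2, VhaAC45 and VhaAC45RP, encode accessory proteins. Chromatin immunoprecipitation with an antibody to GFP was sequenced from whole adult females of a stable transgenic line that carried Hr96, a nuclear receptor that governs cholesterol and dietary fat handling, fused to eGFP at its C-terminus. The 2 samples were biological replicates 1 and 3 of 1 group, of an age the labels call unknown, and both were called against the same control file. One label field gives Hr96 itself as the antibody, but the remaining fields give GFP. No sample lacked the fusion, so signal unrelated to Hr96 cannot be told apart from Hr96 binding, and whole animals resolve no tissue. The read totals behind the peaks are unknown, and expression was not measured in these samples.

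The vacuolar ATPase is a rotary proton pump that acidifies lysosomes, endosomes and secretory vesicles. Its V1 domain hydrolyses ATP and turns a central rotor, and the rotor drives the proton-carrying ring of V0 past subunit a. In insects the pump also sits in the plasma membrane of epithelia such as the Malpighian tubules, where it energises fluid secretion, and many of its subunits have several paralogous genes, some of them with expression restricted to the testis or to neurons. For each subunit with several genes, the paralogue of the epithelial pump is called the main paralogue here, and a subunit gene without paralogues is called single.

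A gene was counted as bound where a summit among the 3607 peaks retained by irreproducible discovery rate (the IDR list) lay within 500 bp of any of its transcription start sites (TSSs). By that rule 12 of the 33 Vha genes (36.4%) were bound, beside 18.1% of all protein-coding genes. The bound genes were the V1 genes Vha68-1, Vha68-2, Vha55, Vha44, Vha36-1 and Vha13 and the V0 genes Vha100-2, Vha16-1, Vha16-5, VhaPPA1-1, VhaAC39-2 and VhaM9.7-c. They encode 5 of the 8 V1 subunits (A, B, C, D and G) and all 5 V0 subunits (a, c, c″, d and e), and neither accessory gene was bound. Every V0 subunit has several genes and most V1 subunits have 1, so a V0 subunit had more chances to be counted. By the main or single gene alone, 5 of 8 V1 subunits and 3 of 5 V0 subunits were bound. Differences between shares of genes were not tested here or below, because genes are not replicates.

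The sequences at 5 of these summits are shown because they cover both domains, the strongest V1 summit with no other gene nearer, and summits on both sides of the TSS. They were read from the RefSeq copy of the dm6 assembly, on the strand of the gene and from 5′ to 3′, and capitals mark the 11 bases centred on the IDR summit. The stretches of Vha55, Vha68-1 and VhaM9.7-c end at the first base before the gene, and that of VhaPPA1-1 stops short of it. The stretch of Vha68-2 lies in its first intron.
Vha55, chr3R:12627830-12627965, minus strand: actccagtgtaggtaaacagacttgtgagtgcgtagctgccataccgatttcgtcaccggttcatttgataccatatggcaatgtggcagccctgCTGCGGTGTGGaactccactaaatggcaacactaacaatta
Vha68-1, chr2L:13004108-13004292, minus strand: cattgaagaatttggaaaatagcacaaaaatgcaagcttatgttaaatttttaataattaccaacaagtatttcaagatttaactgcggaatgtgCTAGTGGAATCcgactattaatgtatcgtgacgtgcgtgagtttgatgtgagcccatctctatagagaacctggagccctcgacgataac
Vha68-2, chr2L:12974444-12974589, plus strand: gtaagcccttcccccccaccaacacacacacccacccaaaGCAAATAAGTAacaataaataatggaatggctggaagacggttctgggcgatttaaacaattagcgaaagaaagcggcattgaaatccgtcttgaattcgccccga
VhaPPA1-1, chr3R:14904066-14904266, minus strand: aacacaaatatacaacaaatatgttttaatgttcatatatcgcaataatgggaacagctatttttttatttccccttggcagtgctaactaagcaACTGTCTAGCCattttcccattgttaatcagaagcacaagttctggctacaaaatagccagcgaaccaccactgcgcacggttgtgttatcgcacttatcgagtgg
VhaM9.7-c, chr3L:4186866-4187005, minus strand: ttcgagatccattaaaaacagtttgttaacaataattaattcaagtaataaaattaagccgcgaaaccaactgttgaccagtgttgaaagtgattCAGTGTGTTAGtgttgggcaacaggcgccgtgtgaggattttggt
None of these 5 stretches held any of the 5 short motifs described further on, and their content of G and C ranged from 37.3% at Vha68-1 to 47.8% at Vha55. The Vha55 stretch ends before a CACGTG that lies 94.5 bp downstream of its summit. The summit windows of Vha44, Vha100-2 and Vha16-1 hold a motif and are not shown. The absence therefore describes only the stretches printed here.

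Within V1, 6 of 13 genes (46.2%) were bound, against the same 18.1% of all genes. The signal is the strength value that the authors' peak caller gave each peak, and its scale differs between libraries, so ranks within each list are given beside it. Subunits A and B form the head that binds and hydrolyses ATP. At Vha55, the single gene of subunit B (3R, 12623762 to 12627829), the IDR summit lay 36 bp upstream of a TSS with signal 213.0 at rank 639. The matching summit, taken as the nearest within 100 bp, had signal 164.3 at rank 534 in replicate 1 and 49.4 at rank 1472 in replicate 3. Both replicates thus placed it well inside the strongest 3607 of their 30000 peaks. The TSS of Snx3, a sorting nexin gene, lay 166 bp from the same summit, and a weaker IDR summit of signal 61.1 at rank 3522 lay in an intron of Vha55.

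Subunit A has 3 genes, and the main paralogue was not the one with the strongest peak. Vha68-1 (2L, 13000770 to 13004107), a further paralogue, had its summit 85 bp upstream of the TSS with an IDR signal of 129.6 at rank 1313, with 110.6 at rank 956 in replicate 1 and 32.5 at rank 2914 in replicate 3. The replicate 3 summit lay 185 bp upstream of the TSS, exactly at the 100 bp limit for a match. The TSS of mTor, the kinase that links growth to nutrients, lay 288 bp from the IDR summit on the opposite strand. The main paralogue Vha68-2 (2L, 12974322 to 12978607) had a summit in its first intron, 125 bp downstream of the nearest TSS, with a signal of 62.7 at rank 3393, near the weak end of the list, whose lowest signal was 59.9. Replicate 1 had a matching summit there (52.1 at rank 2362) and replicate 3 had none within 100 bp, its strongest in the window being 19.5 at rank 6451. Vha68-3, which starts 178 bp after Vha68-2 ends on the same strand, had no summit in its window in any list.

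The other V1 subunits with a bound gene belong to the stalks. Subunit D is part of the central rotor, and its main paralogue Vha36-1 (2R, 15541435 to 15542498) had the strongest peak of the 12, with signal 230.1 at rank 576, 151.9 at rank 589 in replicate 1 and 89.5 at rank 471 in replicate 3. That summit lay 84 bp upstream of Vha36-1 but only 12 bp from the TSS of CG8187, in whose 5′ untranslated exon it fell. Subunit C joins the stator to the membrane domain and is the subunit known to leave when the pump disassembles. Its single gene Vha44 (2R, 16324813 to 16336637) had a summit of signal 118.2 at rank 1496, with 81.7 at rank 1411 in replicate 1 and 41.4 at rank 1953 in replicate 3. This summit lay 97 bp upstream of a Vha44 TSS and 26 bp from the TSS of Hmgs, the gene of HMG-CoA synthase, an enzyme of the mevalonate pathway. Subunit G is a stator subunit, and its single gene Vha13 (3R, 19643018 to 19644386) had a weak summit 222 bp inside the gene, in an intron, with signal 68.3 at rank 3045. It matched a replicate 3 summit of 57.4 at rank 1112 and none within 100 bp in replicate 1, where the strongest in the window was 22.9 at rank 9220. Vha13 and Vha68-2 thus each had a summit among the strongest 3607 of 1 replicate only.

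V1 subunits E, F and H had no bound gene, although the main or single gene of each is part of the epithelial pump. Vha26, the single gene of the stator subunit E (3R, 5591763 to 5595356), had no summit in its window in any list, and its nearest IDR summit was 23061 bp away. The main gene of rotor subunit F, Vha14-1 (2R, 15679426 to 15680084), likewise had none within 500 bp. A strong IDR peak lay past its 3′ end, 857 bp downstream of its TSS, with signal 270.2 at rank 431, 194.8 at rank 396 in replicate 1 and 72.3 at rank 737 in replicate 3. It lay 271 bp from the TSS of Gmppa and stands among the Vha genes only if the window is widened to 1000 bp, where 13 members (39.4%) and 20.5% of all genes were bound. VhaSFD, the single gene of the regulatory subunit H (2L, 16722883 to 16727826), had a summit in replicate 3 alone, 57 bp inside the gene, with signal 39.0 at rank 2170. Neither replicate 1 nor the pooled list had a summit in that window.

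Within V0, 6 of 18 genes (33.3%) were bound, beside 18.1% of all genes. Subunit a holds the channels by which protons enter and leave the ring, and of its 5 genes only the main paralogue Vha100-2 (3R, 18390323 to 18399169) was bound. Its strongest summit had signal 150.2 at rank 1082 and lay inside the gene, 391 bp upstream of its downstream TSS and 324 bp from the TSS of Vti1b, a gene of a vesicle fusion protein that overlaps it on the opposite strand. Replicate 3 had a match (62.7 at rank 964), and replicate 1 had none within 100 bp but a summit of 102.9 at rank 1048 within 200 bp. A second IDR summit, 479 bp upstream of the start of Vha100-2 and in an intron of Vti1b, was weaker, with signal 74.6 at rank 2720. Summits there had 45.0 at rank 2874 in replicate 1 and 30.9 at rank 3167 in replicate 3. The remaining a genes, Vha100-1, Vha100-3, Vha100-4 and Vha100-5, were not bound. Vha100-1, the form known from fly neurons, had a replicate 1 summit of 36.1 at rank 3826.

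The proteolipid subunits c and c″ make up the ring. The main c gene Vha16-1 (2R, 6625242 to 6633090) had a summit 137 bp upstream of a TSS with signal 99.8 at rank 1867, and a second IDR summit of 87.3 at rank 2236 near its other TSS. At the first, replicate 1 had 79.4 at rank 1461, and the nearest replicate 3 summit, 13 bp upstream of the TSS and just past the 100 bp limit for a match, had 44.1 at rank 1765. At the second, replicate 1 had 32.5 at rank 4436 and replicate 3 had 44.8 at rank 1717. Both replicates thus had summits near both TSSs, with the first ranked well above the second in replicate 1 and the pair nearly level in replicate 3. Vha16-5 (2L, 10736319 to 10737043) was also bound, with signal 117.9 at rank 1502, 89.5 at rank 1254 in replicate 1 and 28.9 at rank 3529 in replicate 3. Replicate 3 had a stronger summit of 37.6 at rank 2310 nearer to the gene, 57 bp upstream of the TSS. The IDR summit lay 267 bp upstream of Vha16-5 but 35 bp from the TSS of CG12299 on the opposite strand. Vha16-2, Vha16-3 and Vha16-4 were not bound. The main c″ gene VhaPPA1-1 (3R, 14902330 to 14904061) had an intergenic summit 105 bp upstream with signal 102.8 at rank 1793, 77.3 at rank 1505 in replicate 1 and 27.7 at rank 3751 in replicate 3, and its neighbour VhaPPA1-2, 2052 bp further along, had no summit in its window in any list.

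At subunits d and e the binding lay at a further paralogue and not at the main gene. Subunit d couples the rotor to the ring. Its main gene VhaAC39-1 (X, 3880748 to 3882967) had only a replicate 3 summit of 15.5 at rank 10050, with the nearest IDR summit 9933 bp away, while VhaAC39-2 (3R, 23158017 to 23159316) had an IDR summit of 75.7 at rank 2666. That summit lay 434 bp upstream of VhaAC39-2, with 53.6 at rank 2288 in replicate 1 and 16.8 at rank 8523 in replicate 3. Subunit e is a small membrane protein with 4 genes. The main gene VhaM9.7-b (3L, 21539862 to 21541215) had no summit in its window in any list, and its nearest IDR summit was 22968 bp away. VhaM9.7-c (3L, 4186018 to 4186865) had an IDR summit 40 bp upstream of its TSS, within introns of Teh2 and CG18675, with signal 111.9 at rank 1611, 79.0 at rank 1468 in replicate 1 and 31.7 at rank 3022 in replicate 3. VhaM9.7-a missed the IDR list with a pooled signal of 46.3 at rank 5037, 17.4 at rank 19855 in replicate 1 and 27.8 at rank 3727 in replicate 3.

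**Figure D1:**
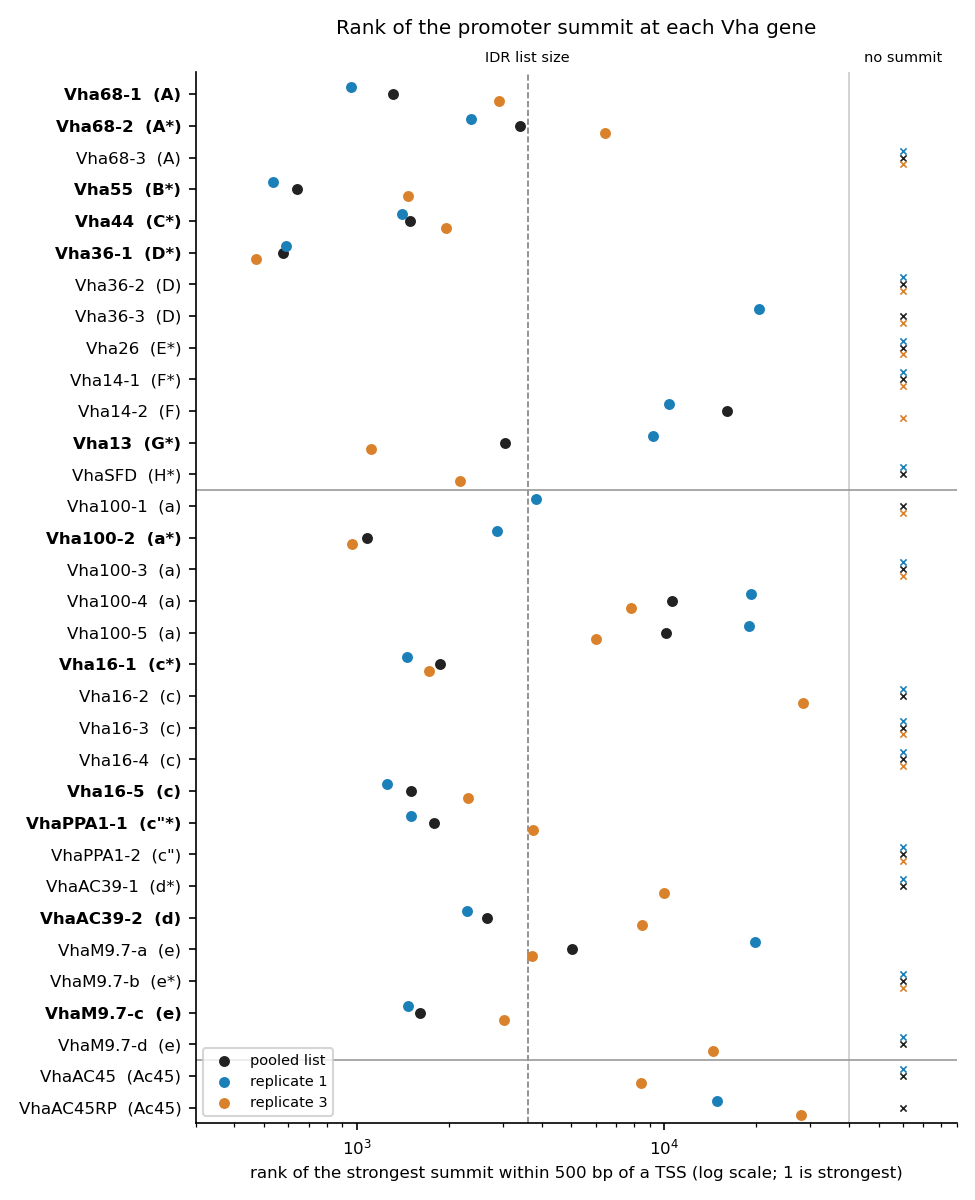
Rank of the strongest summit within 500 bp of a TSS for each of the 33 Vha genes (rows, by domain and subunit) in the pooled list and in each replicate list, on a log axis where rank 1 is the strongest peak. Bold names are bound in the IDR list, an asterisk marks a main or single gene, crosses at the right mark lists with no summit in the window, and the dashed line is rank 3607; Vha36-1 and Vha55 lie furthest to the strong side in the pooled list.

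Main or single genes were bound in 8 of 13 cases (61.5%) and further paralogues in 4 of 18 (22.2%), with 18.1% of all genes beside both. In the IDR list the contrast lay in both domains: 5 of 8 main or single genes and 1 of 5 further paralogues in V1, and 3 of 5 and 3 of 13 in V0. Comparing paralogues within a subunit gave another picture. Of the 8 subunits with several genes, 3 (D, a and c″) were bound at the main gene only, 2 (A and c) at both with the higher signal at the further paralogue, 2 (d and e) at a further paralogue only, and F at none. For subunit c the order turned in replicate 3, where the strongest summit in the window ranked 1717 at the main gene Vha16-1 and 2310 at Vha16-5. In replicate 1 it ranked 1461 at Vha16-1 and 1254 at Vha16-5. For subunit A, Vha68-1 ranked above Vha68-2 in both replicates.

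**Figure D2:**
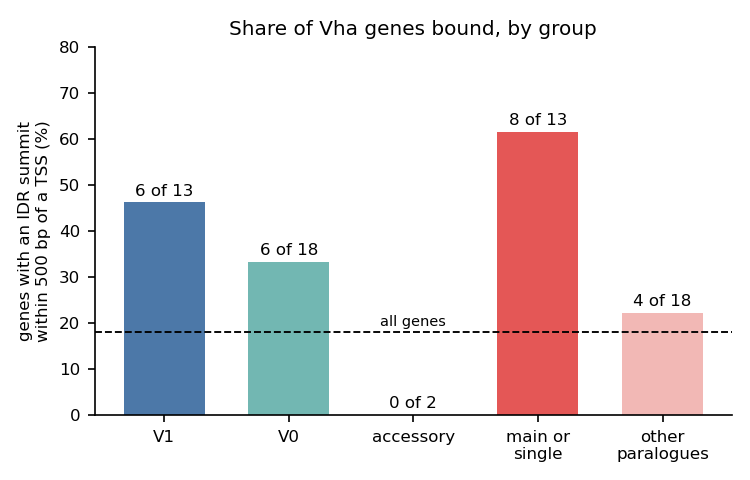
Percent of genes bound in the IDR list for the V1, V0 and accessory genes and for main or single genes and further paralogues, with counts above the bars and a line at the 18.1% of all protein-coding genes. The tallest bar is that of the main or single genes, 8 of 13.

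Genes with more annotated TSSs have more chances to be called, and the Vha genes were therefore divided by TSS number. With 1 TSS, 7 of 25 Vha genes (28.0%) were bound, beside 12.8% of all such genes. With 2 or more, 5 of 8 (62.5%) were bound, beside 32.9%. The members' share was thus above that of all genes in both classes, and the part of TSS number in the contrast between main genes and further paralogues was not tested. When only the 5′ end of each gene was used, 12 members were bound, as before, against 16.0% of all genes. The bound members were 5 of 12 on 3R, 3 of 6 on 2L, 3 of 8 on 2R, 1 of 5 on 3L and 0 of 2 on X. Of all genes, 685 of 3421 were bound on 3R, 17.4% on 2L and on 2R, 20.3% on 3L and 14.7% on X.

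The peaks at the bound Vha genes were of ordinary strength for bound promoters. Their median IDR signal was 114.9, with a range of 62.7 to 230.1, against a median of 126.2 over all 2526 bound genes. Of the 12, 8 (66.7%) were among the strongest 1803 IDR peaks, against 62.2% of all bound genes. The −log10 of the q-value ranged from 0.96 at Vha68-2 to 3.47, the highest value in the list, at Vha36-1, Vha55, Vha100-2 and Vha68-1. Matched summits within 100 bp in both replicates were found for 8 of the 12 (66.7%), and for 81.7% of all bound genes. The 4 without were Vha68-2 and Vha16-1, with no match in replicate 3, and Vha13 and Vha100-2, with none in replicate 1.

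**Figure D3:**
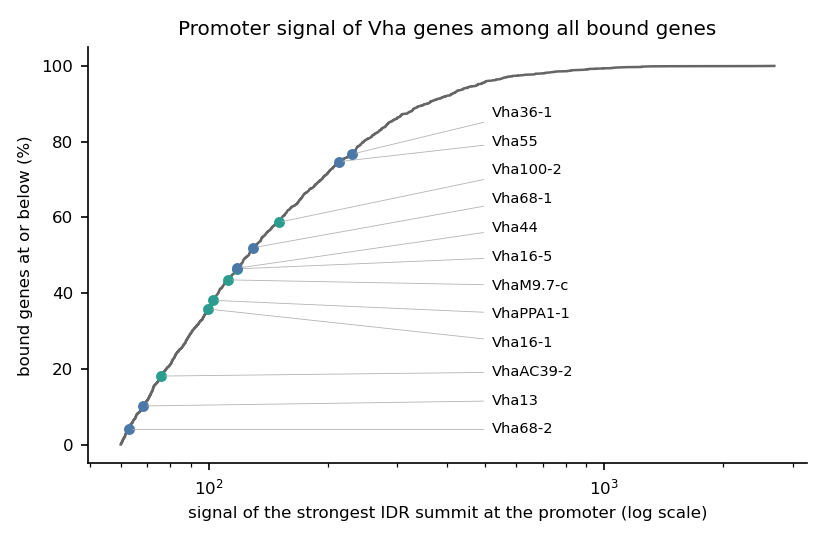
Cumulative percent of all 2526 bound genes (vertical axis) at or below each signal of the strongest IDR summit at the promoter (horizontal log axis, in the caller's units), with points for the bound Vha genes (V1 blue, V0 green). The members spread from 62.7 at Vha68-2 to 230.1 at Vha36-1 and none lies in the far upper tail, which reaches 2692.

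Summits at the bound Vha genes were close to TSSs, at a median distance of 115 bp against 127 bp for all bound genes. Of the 12, 10 lay upstream of the member's nearest TSS and the other 2, at Vha68-2 and Vha13, downstream of it. Those 2 lay inside the gene, as did the Vha100-2 summit, which was upstream only of the downstream TSS. At 6 of 12 another protein-coding TSS also lay within 500 bp, beside 50.4% of all bound genes, and all 6 of those neighbours were on the opposite strand. At 4 of them the neighbour's TSS was the nearer: Hmgs at Vha44, CG8187 at Vha36-1, Vti1b at Vha100-2 and CG12299 at Vha16-5. Assigning each summit only to the gene with the nearest TSS removed those 4 and left 8 members (24.2%), beside 14.2% of all genes. At these summits, binding at the Vha gene and at its neighbour cannot be told apart.

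**Figure D4:**
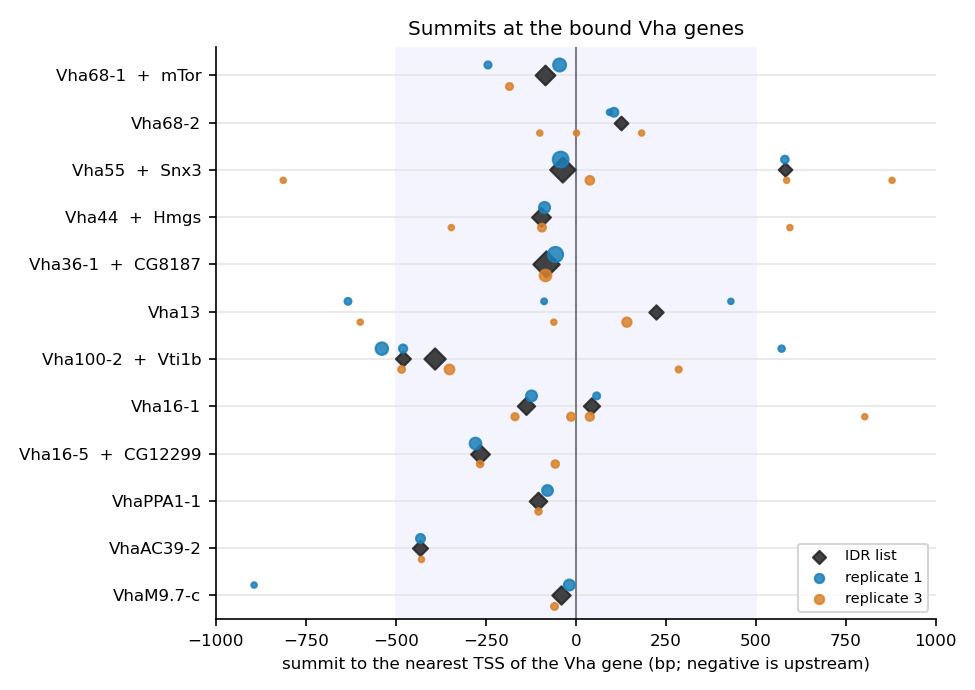
Position of every IDR summit (diamonds) and every replicate 1 and replicate 3 summit (circles) near the bound Vha genes. Positions are relative to the nearest TSS of that gene (0, with upstream to the left, in bp), and marker area grows with signal up to a cap. Labels name the other gene whose TSS lies within 500 bp of the strongest IDR summit. Most of the strongest IDR summits lie between the TSS and 150 bp upstream of it.

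The lists of each library held more members. In the pooled list 16 of 33 Vha genes (48.5%) had a summit in the window, beside 39.5% of all genes. In replicate 1 there were 19 (57.6%), beside 39.0%, and in replicate 3 there were 21 (63.6%), beside 44.2%. By domain, V1 had 8 of 13 in replicate 1 and 7 of 13 in replicate 3, and V0 had 10 of 18 and 12 of 18. The main or single genes and the further paralogues stood closer together in replicate 1, with 8 of 13 (61.5%) and 10 of 18 (55.6%), than in the IDR list. In the pooled list they had 8 of 13 and 8 of 18 (44.4%), and in replicate 3 they had 10 of 13 (76.9%) and 9 of 18. Of the 21 unbound members, 12 had a summit in at least 1 of these lists and 9 had none in any, namely Vha68-3, Vha36-2, Vha26, Vha14-1, Vha100-3, Vha16-3, Vha16-4, VhaPPA1-2 and VhaM9.7-b. The share of all unbound genes with a summit in any of these lists was not computed. The absence of a summit says only that none was listed among 30000 regions.

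The count of bound members was also taken from each replicate alone, using its strongest 3607 peaks. Without replicate 1, 10 members (30.3%) were bound beside 18.4% of all genes: Vha68-2, VhaPPA1-1 and VhaAC39-2 were lost and VhaSFD was gained, so that subunits c″ and d had no bound gene and H had. Without replicate 3, 11 (33.3%) were bound beside 18.6%, and the gene lost was Vha13. A window of 250 bp left 9 members (27.3%) beside 15.0%, and the strongest 1803 IDR peaks left 8 (24.2%) beside 11.3%. Across the 7 changes of rule, 3 members were bound every time, namely Vha68-1, Vha55 and VhaM9.7-c. The share of all genes bound under every rule was not computed.

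Short motifs were searched as exact letters on both strands from 100 bp before to 100 bp after each strongest summit. TCACGTGA, the core of the CLEAR element recognised by the lysosomal regulator Mitf and its mammalian relative TFEB, was in the window of Vha44 alone, at 52.5 bp from the summit, and in 0.222% of all IDR windows. CACGTG, the E-box that lies inside TCACGTGA, was in those of Vha44 and Vha55, and in 2.55% of all. AGGTCA, the core of many nuclear receptor sites, and TATCGATA, the DRE element, were in none of the 12, and in 3.52% and 4.46% of all windows. AGTGCA, the same bases as AGGTCA in another order, was in those of Vha100-2 and Vha16-1 and in 16.2% of all. Whether Hr96 itself recognises AGGTCA or AGTGCA was not tested, so neither serves here as its site or as a control. In the promoters of all 33 members, from 250 bp before to 50 bp after the gene start, TCACGTGA was again in Vha44 alone, beside 0.172% of all promoters. CACGTG was in 3 (beside 4.20%), TATCGATA in 2, Vha55 and VhaSFD (beside 9.36%), AGGTCA in 2 (beside 5.88%) and AGTGCA in 6 (beside 16.0%). A match shows only that the letters are present in the window.

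Of 27 other genes of lysosome and pump function in a list drawn up for comparison, 6 (22.2%) were bound, beside 18.1% of all genes. The pump assembly genes Rbcn-3A and Rbcn-3B and the regulator gene Mitf were not bound. Of 7 Rag and Ragulator genes, which tether the mTor kinase to lysosomes, only Lamtor5 was bound, at signal 61.1 and rank 3521. Of 17 genes of lysosomal enzymes, membrane proteins and transporters, 5 were bound. They were the cathepsin genes CtsB (signal 306.3, rank 330) and CtsL1 (85.1, rank 2311), the thioesterase gene Ppt1 (144.9, rank 1134), the membrane protein gene Cln3 (82.0, rank 2421) and Lamp1 (61.5, rank 3491). The peaks of CtsB, CtsL1 and Ppt1 also lay within 500 bp of the TSS of another gene. Replicate 1 had no summit within 100 bp of those of CtsB, CtsL1 and Cln3, which matched replicate 3 at ranks 383, 1688 and 1654. In replicates 1 and 3 the matches ranked 1020 and 1896 for Ppt1, 4307 and 3391 for Lamp1, and 3560 and 7381 for Lamtor5.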

How the data were processed

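Each deposited peak list holds a signal value per peak, given by the authors' peak caller, with the −log10 of its q-value, identified from the narrowPeak column order. Per the deposited text lists, each replicate was called against 1 shared control file, the pooled list came from both replicates, which yielded the IDR list. For the aligner, peak caller and IDR threshold, names and values were not given in the sources used here. Lists on dm3 were not analysed here.

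Members were matched by symbol in Ensembl release 115 (BDGP6, dm6), and sequence came from the RefSeq copy of that assembly. Each gene took its strongest summit within 500 bp of a TSS. Replicate summits were matched within 100 bp. Values are given in full for bound members and for unbound main or single members. The members, paralogue roles, lists and alternatives were chosen with earlier results of these data known, and no test was made. Counting was tested on simulated data. Alternatives changed the window, peak set, gene assignment and matching distance, or left out a replicate by taking the 3607 strongest peaks from the remaining replicate. Python 3.11.15, numpy 2.4.6, pandas 2.3.3 and matplotlib 3.10.9 were used.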

Additional observations from a re-analysis of the deposited data

Results flagged for a closer look

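Of the unbound members, 12 had a summit within 500 bp of a TSS in a replicate list although none was in the IDR list, which is why they are named here. Of all protein-coding genes, 39.0% had such a summit in replicate 1 and 44.2% in replicate 3. The share of all unbound genes with one in either list was not computed, so the count of 12 cannot be called high or low. The ranks that follow are among 30000 regions. In replicate 1 the strongest summit ranked 3826 at Vha100-1, 10373 at Vha14-2, 14863 at VhaAC45RP and 20438 at Vha36-3. In replicate 3 it ranked 2170 at VhaSFD, 3727 at VhaM9.7-a, 6015 at Vha100-5, 7793 at Vha100-4, 8412 at VhaAC45, 10050 at VhaAC39-1, 14409 at VhaM9.7-d and 28275 at Vha16-2. The VhaSFD and VhaM9.7-a summits are the strongest of these by rank within a list.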

How the results depend on the processing

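The count of bound Vha genes, 12, ranged from 8 to 13 over the 7 changes of rule, always above the share of all genes under the same rule. Leaving out 1 replicate gave 10 to 11 bound Vha genes, 5 to 6 V1 genes, 4 to 6 V0 genes, 7 main or single genes and 3 to 4 further paralogues. The narrower 250 bp window left 3 of 18 V0 genes (16.7%) and 2 of 18 further paralogues (11.1%) beside 15.0% of all genes, so that V0 stood near the share of all genes and further paralogues below it, since Vha100-2, Vha16-5 and VhaAC39-2 have summits further out. Main or single genes fell to 5 of 13 (38.5%) when only the strongest 1803 IDR peaks were kept, beside 3 of 18 further paralogues and 11.3% of all genes. They also fell to 5 of 13 when each summit counted only for the gene with the nearest TSS, beside 3 of 18 and 14.2%. Both rules can only lower a count, since they leave fewer peaks or fewer assignments. Bound members matched in both replicates numbered 8 at 100 bp, 6 at 50 bp and 11 at 200 bp. No paired analysis was possible because there is 1 group. With 2 replicates, no control without the fusion and no read totals, no interval can be set on any of these values.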
